A study of Mus musculus with 9 samples.

Results

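The 10 genes described here code for proteins that bind microtubules, tubulin or a microtubule motor in young neurons: *Dcx* and *Dclk1* of the doublecortin family, the structural microtubule-associated protein genes *Map1b*, *Map2* and *Mapt*, the kinesin adaptor gene *Fez1*, and the stathmin genes *Stmn1*, *Stmn2*, *Stmn3* and *Stmn4*. They were chosen by name, not by their values, and all 10 were found among the 17487 genes with a UMI (unique molecular identifier, a counted transcript molecule) in the 9 libraries. Each gene was followed from progenitors to neurons and between wild-type (WT) and *Tcf4* knockout (KO) embryos.

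The study profiled single cells of the neocortex of mouse embryos at E18.5 (embryonic day), with the 10x Chromium 3′ chemistry, as 5 libraries labelled WT and 4 labelled KO. WT and KO embryos were littermates from crosses of animals with 1 mutant *Tcf4* allele (strain label Tcf4ex4WT/lacZ). KO embryos carried on both alleles a *lacZ*/neomycin cassette placed before exon 4, an allele present in every cell of the animal that leaves *Tcf4* isoforms starting after this exon intact, and no group was treated. WT2, WT3 and WT4 were compared with KO4 and KO5, and the library labelled WT5 is shown beside them, since it holds many cells but stood apart from WT2 to WT4. Levels are given as the mean over cells of UMIs per 10000 UMIs of the cell, and the animal is the replicate.

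Microtubules carry cargo along axons, stiffen the leading process of migrating neurons and let the nucleus follow. Doublecortin binds and bundles them in migrating and differentiating neurons, and its loss disturbs cortical layering in humans. MAP1B, MAP2 and tau (the product of *Mapt*) stabilize microtubules in growing axons and dendrites, FEZ1 links cargo to kinesin, and stathmins bind free tubulin and promote the shrinking of microtubules. In the embryonic cortex several of these genes are textbook markers of the step from dividing progenitors to postmitotic neurons. TCF4, a basic helix-loop-helix transcription factor, binds E-boxes, short DNA motifs with the letters CANNTG.

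Libraries differed in ways that the genotype label did not explain. *Tcf4* itself, whose 3′ reads lie outside the disrupted exons, stood at 12.2, 12.6 and 12.2 in WT2, WT3 and WT4 and at 9.29 and 7.59 in KO4 and KO5, but at 7.20 in the library labelled WT5 and 16.7 in the library labelled KO1, which goes against both labels. The paper left out a WT animal for *Tcf4* lower than in the KO, but does not name its library. *Actb*, a gene of all cells, was at 40.5 to 64.3 in WT2 to WT4, at 172 and 170 in KO4 and KO5 and at 197 in WT5, and *Clasp2* at 0.735 to 1.11 against 4.57 and 4.86, with 5.36 in WT5. Median UMIs per kept cell ran from 2478.5 to 4359 in WT2 to WT4 and were 2290 and 2217 in KO4 and KO5. Cells over the haemoglobin limit of 1% made up 0.421 to 1.34% of WT2 to WT4, 13.9% of KO4 and 40.4% of KO5, and pairs of libraries shared at most 46 cell barcodes. KO5 was the only library with UMIs of Y-linked genes and none of *Xist*, so sex was not balanced, which bears on *Dcx*, a gene on the X chromosome. The genotype and these differences between the compared libraries cannot be told apart.

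Cells were assigned to classes by the number of marker genes detected after each cell was thinned to 1800 UMIs, none of the markers being a gene described here, and are called gated cells. The radial glia gate asked for at least 3 of 10 markers, the upper layer gate for at least 2 of 8 with *Neurod2* or *Neurod6*. The 5 libraries gave 209, 425, 1040, 780 and 461 upper layer-gated cells in WT2, WT3, WT4, KO4 and KO5, and 55, 70, 230, 123 and 57 radial glia-gated cells in the same order. Each gate held its own markers among its leading genes in both genotypes, but cells were chosen by these markers, so this is no check. Markers aside, interneuron-gated cells were led by *Neb*, *Nrxn3* and *Maf* in WT2 to WT4 and *Snrnp25*, *Zfp90* and *Fbxl5* in KO4 and KO5. Newborn neuron-gated cells were led by *Calb2*, *Negr1* and *Cck* against *Cyld*, *Prpf4* and *Ptx3*. Some other gates shared leading genes, as cycling progenitor-gated cells did with *Cdc20* and *Ccna2*. Radial glia-gated cells held exactly the 3 markers asked for in 17.1 to 20% of cells in WT2 to WT4, 60.2% in KO4, 73.7% in KO5 and 71.7% in WT5, and the summed level of the 10 radial glia markers in them was 72.5 to 76.1, 28.1, 20.6 and 19.3 UMIs per 10000. For upper layer-gated cells the share at the limit was 47.8 to 56.5% in WT2 to WT4 against 55.6 and 60.7% in KO4 and KO5, and the summed level of the 8 markers was 16.1 to 18.9 against 15.3 and 14.7.

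RefSeq promoter windows (250 bases before to 50 after a start, build GRCm38.p6) were at hand for 6 of the 10 genes, as 10 windows. CANNTG, the E-box, was searched on both strands, with CAGGTG and CATCTG as special cases of it. It was found in 6 of the 10 windows, against 72.3% of 32851 windows of all genes. CAGGTG was in 1 of the 10 (20.2% of all windows) and CATCTG in 3 of the 10 (17.2%). Windows are shown for 4 genes because their transcripts took different courses below, in the direction of the gene with E-boxes in capitals. A gene can have further windows. For *Fez1*, chr9:36821641-36821940 held 0 E-boxes and chr9:36833324-36833623 held 1, CAGCTG. For *Dclk1*, chr3:55242114-55242413 held CAAATG and CACATG, and the window shown lies farther inside the gene.
*Dcx*, chrX:143933170-143933469, minus strand, no E-box: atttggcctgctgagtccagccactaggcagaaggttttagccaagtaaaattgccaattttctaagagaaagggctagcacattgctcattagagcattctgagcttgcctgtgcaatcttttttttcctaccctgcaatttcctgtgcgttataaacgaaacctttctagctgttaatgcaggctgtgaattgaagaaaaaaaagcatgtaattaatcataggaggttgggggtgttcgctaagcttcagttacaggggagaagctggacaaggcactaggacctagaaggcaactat
*Dclk1*, chr3:55461478-55461777, plus strand, CAGGTG read on the other strand: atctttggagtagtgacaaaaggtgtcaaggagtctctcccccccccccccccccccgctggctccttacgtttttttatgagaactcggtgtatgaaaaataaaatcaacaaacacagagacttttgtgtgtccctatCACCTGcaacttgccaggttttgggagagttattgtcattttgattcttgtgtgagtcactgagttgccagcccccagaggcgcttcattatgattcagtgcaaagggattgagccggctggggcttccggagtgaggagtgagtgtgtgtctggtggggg
*Fez1*, chr9:36832490-36832789, plus strand, 3 E-boxes, among them CATCTG: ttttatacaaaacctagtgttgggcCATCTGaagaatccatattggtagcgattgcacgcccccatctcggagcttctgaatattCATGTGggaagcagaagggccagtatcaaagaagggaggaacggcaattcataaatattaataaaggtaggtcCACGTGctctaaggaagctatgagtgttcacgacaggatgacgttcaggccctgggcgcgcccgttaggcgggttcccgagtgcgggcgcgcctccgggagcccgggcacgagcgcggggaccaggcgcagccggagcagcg
*Stmn3*, chr2:181314451-181314750, minus strand, CATCTG read on the other strand: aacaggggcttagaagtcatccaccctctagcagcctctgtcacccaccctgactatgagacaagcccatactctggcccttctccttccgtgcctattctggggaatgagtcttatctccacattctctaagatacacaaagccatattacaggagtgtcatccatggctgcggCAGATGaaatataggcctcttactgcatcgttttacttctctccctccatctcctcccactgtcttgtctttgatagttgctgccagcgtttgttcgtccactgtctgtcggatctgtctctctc
A match to these letters describes the window and is no evidence of binding. No second *Dcx* window held an E-box either. These windows are short. The paper marks putative E-boxes in a longer *Dcx* regulatory region that overlaps them. It reports that the TCF4 DNA-binding domain bound to that region in a mobility shift assay.

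In WT2 to WT4 the 10 genes rose from glia and progenitors to neurons, with exceptions for *Dclk1* and *Fez1*. *Dcx* (chromosome X, 143855842-143933311, minus strand, GRCm38) had its lowest mean in endothelial- or microglia-gated cells, at 0.549, 1.06 and 1.75 in WT2, WT3 and WT4, and low in radial glia-gated cells, at 2.37, 0.935 and 1.64. It stood at 5.50, 4.36 and 5.29 in intermediate progenitor-gated cells, the transit-amplifying precursors of neurons, and had its highest mean in newborn neuron-gated cells, at 6.21, 6.24 and 6.35, although deep layer-gated cells of WT2 (6.86) and interneuron-gated cells of WT4 (6.56) were higher. Upper layer-gated neurons had 5.53, 5.29 and 5.58, below newborn neurons in all 3 libraries. The highest class mean was 5.60-fold the lowest, and the only neighbours in the order of class means whose libraries did not overlap were cycling progenitors and intermediate progenitors.

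*Dclk1* (chromosome 3, 55242364-55539068, plus strand), which joins doublecortin domains to a kinase, had another course. It was highest in radial glia-gated cells, at 3.6, 4.25 and 4.92 in WT2, WT3 and WT4, above every neuronal class in its mean and separated from the next class, interneuron-gated cells, without overlap. It fell to 1.55, 1.37 and 1.75 in intermediate progenitor-gated cells and stood at 2.33, 1.92 and 2.25 in upper layer-gated neurons. *Fez1* (chromosome 9, 36821864-36878924, plus strand) was also as high in radial glia-gated cells, at 5.58, 6.29 and 5.57, as in upper layer-gated neurons, at 5.82, 6.77 and 5.15, with a dip to 3.70, 3.80 and 4.07 in intermediate progenitor-gated cells. Its level in endothelial- or microglia-gated cells was 0.478, 0.193 and 1.38, from 4, 2 and 43 UMIs in 21, 13 and 71 cells. With these few UMIs as the lower end, its class means spanned 8.67-fold, the widest span of the 10 genes in these libraries. Its next lowest class mean was 3.77, in cycling progenitor-gated cells, and its highest 5.92, in upper layer-gated neurons.

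Among the structural genes, *Map1b* (chromosome 13, 99421446-99516540, minus strand), expressed early in growing axons, went from 8.10, 5.53 and 7.26 in radial glia-gated cells to 21.3, 19.0 and 21.0 in upper layer-gated neurons, with newborn neurons between at 20.2, 11.4 and 16.2. *Map2* (chromosome 1, 66175273-66442583, plus strand), which marks dendrites, rose least, with a highest class mean 3.15-fold the lowest. It went from 2.43, 1.72 and 2.3 in radial glia-gated cells to 5.19, 4.11 and 3.88 in newborn neuron-gated cells. *Mapt* (chromosome 11, 104231390-104332090, plus strand), coding for the axonal protein tau, was highest in deep layer-gated neurons, at 13.5, 5.94 and 12.3, and in WT3 was the lowest of the 3 libraries in every class, so that no neighbouring classes were separated.

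Stathmins fell into *Stmn1* and the 3 neuronal family members. *Stmn1* (chromosome 4, 134468320-134473843, plus strand), which dividing cells also use, was at 31.0, 31.6 and 32.8 in radial glia-gated cells, already at 55.4, 71.5 and 58.3 in cycling progenitor-gated cells, without overlap, and reached 92.7, 97.3 and 85.4 in upper layer-gated neurons. Its reads may in part be shared with a processed copy in the genome. *Stmn2* (chromosome 3, 8509360-8561606, plus strand), which is tied to growth cones, went from 4.96, 3.31 and 7.69 in radial glia-gated cells to 27.8, 16.8 and 23.0 in upper layer-gated neurons. *Stmn3* (chromosome 2, 181306459-181314500, minus strand) and *Stmn4* (chromosome 14, 66344296-66361680, plus strand) had class means 4.75-fold and 5.49-fold apart and their highest means in deep layer-gated neurons, *Stmn4* at 10.7, 8.48 and 7.22.

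**Figure D1:**
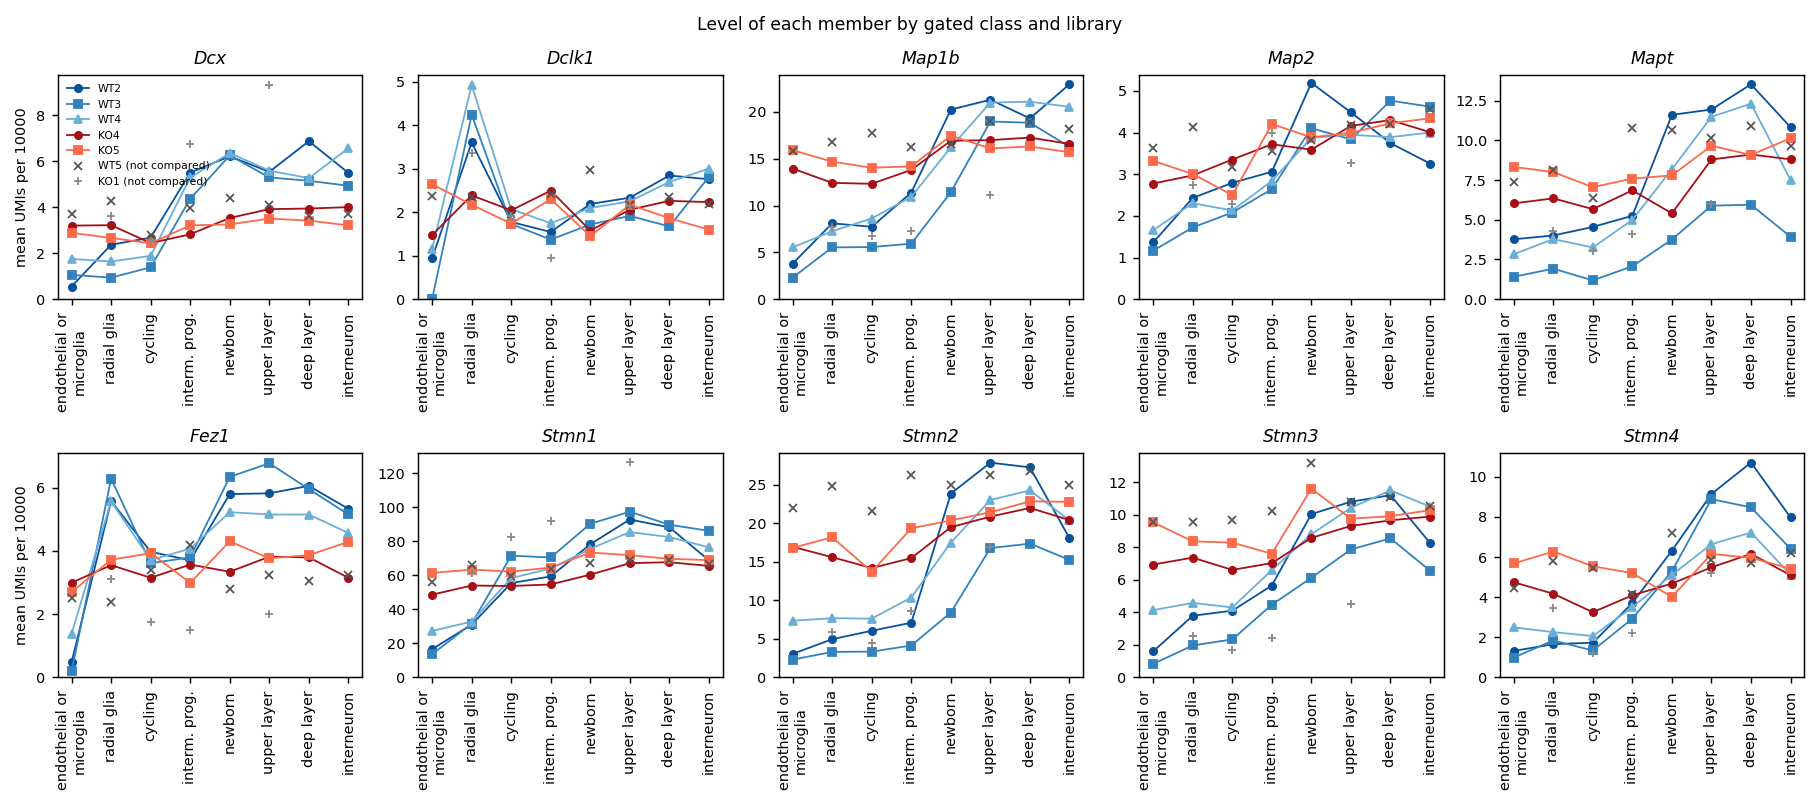
Mean UMIs per 10000 (y axes, from 0) of the 10 genes in 8 gated classes (x axes), a line per compared library (WT2, WT3 and WT4 blue, KO4 and KO5 red), with the libraries labelled WT5 (crosses) and KO1 (plus signs) unconnected. The blue lines climb from left to right for most genes, 5.60-fold between the extreme class means for *Dcx*, while the red lines are flatter, 1.52-fold for *Dcx*.

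The steps between classes were tested with limma on log2 of the level plus 1, with the library as a block and a call at a Benjamini-Hochberg adjusted p below 0.05 over all genes. From radial glia-gated to intermediate progenitor-gated cells, in WT2 to WT4 alone, 5 genes rose (5.11% of 10305 genes were called higher) and 2 fell (9.26% called lower). *Dcx* rose by 1.22 ± 0.11 (log2, SE), with an adjusted p of 1.44e-09, *Stmn1* by 1.0 ± 0.06, and *Map1b*, *Stmn3* and *Stmn4* also rose. *Dclk1* fell by 1.04 on the log2 scale (SE 0.11, limma adjusted p 3.22e-08) and *Fez1* by 0.49 (SE 0.09). From intermediate progenitors to newborn neurons 8 genes rose, all but *Dcx* and *Dclk1* (1.35% of genes called higher), with *Stmn2* at 1.06 ± 0.20, *Mapt* at 0.75 ± 0.10 and *Map1b* at 0.72 ± 0.11. *Dcx* was thus called at the first step, *Stmn2*, *Mapt* and *Map2* at the second, and the difference between the steps was not tested.

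From newborn to upper layer neurons only *Stmn4* rose in WT2 to WT4 (0.48 ± 0.12, 0.475% of genes called higher), and from newborn to deep layer neurons *Stmn4* (0.56 ± 0.12) and *Mapt* (0.43 ± 0.10) rose (0.718%). Over all 5 libraries the same fit gave fewer calls. *Dcx* rose by 0.75 ± 0.20 from radial glia to intermediate progenitors (2.12% called higher), where *Dclk1* and *Fez1* fell (5.15% called lower), and of the 10 genes *Fez1* alone was called higher in newborn neurons (0.36 ± 0.09, 0.294%). Neither neuronal step gave a call among the 10 genes (0.166% and 0.285% of genes called either way), with 0 and 1 of the 10 at an unadjusted limma p under 0.05. Over all 10869 genes, 758 and 1221 had such an unadjusted p. Leaving out WT2, WT3 or WT4 in turn from the 5 libraries took the 3 calls of the first step and the 1 call of the second to 0.

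In KO4 and KO5 the same classes differed little. Highest and lowest class means lay 1.26-fold (*Stmn1*) to 1.61-fold (*Stmn2*) apart, against 3.15-fold (*Map2*) to 8.67-fold (*Fez1*, its lower end from few UMIs) in WT2 to WT4. *Stmn2* was at 15.6 and 18.2 in radial glia-gated cells of KO4 and KO5 and at 20.8 and 21.4 in upper layer-gated neurons. The library labelled WT5 had 24.8 and 26.2 in these classes. The library labelled KO1, with 34 radial glia-gated and 45 upper layer-gated cells, had 5.94 and 16.8.

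Upper layer-gated neurons answer the question of the study most directly, since upper layers hold many of the projection neurons that send axons across the midline. The log2 difference of KO minus WT was below 0 for all 10 genes there, but for *Dclk1*, *Map2*, *Mapt*, *Stmn2* and *Stmn3* by less than its SE. The median over all genes tested was also below 0, at -0.04, and the share of all genes below 0 was not computed. None of the 10 passed the test (2.78% of 8352 genes were called either way), and none was called by edgeR or DESeq2. An unadjusted limma p under 0.05 was found for 3 of the 10. Of all 8352 genes, 1712 had an unadjusted limma p under 0.05. *Dcx* stood at 5.53, 5.29 and 5.58 in WT2, WT3 and WT4 (mean 5.47 ± 0.156 SD, n = 3) and at 3.91 and 3.50 in KO4 and KO5 (3.71 ± 0.290 SD, n = 2). Both KO libraries lay below all WT libraries, at 0.678 of the WT mean. The log2 difference was -0.46 ± 0.12 (SE) with a limma adjusted p of 0.0602, and WT5 had 4.09, next to the KO libraries.

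*Fez1* was at 5.82, 6.77 and 5.15 in the WT libraries and 3.82 and 3.77 in the KO libraries, again without overlap, with a difference of -0.52 ± 0.13 and a limma adjusted p of 0.0543. *Stmn1* (92.7, 97.3 and 85.4 against 67.1 and 71.8) and *Stmn4* (9.15, 8.89 and 6.65 against 5.49 and 6.16) did not overlap either, nor did *Map1b* (21.3, 19.0 and 21.0 against 17.0 and 16.1). So 5 of the 10 genes had every KO library below every WT library, where 30.1% of all genes tested did, and the exact two-sided permutation p of each was 0.2, the smallest that 3 against 2 libraries can give. Leaving out WT4 brought 3 calls, *Dcx*, *Fez1* and *Stmn4*, while calls among all genes rose as well, from 2.78% to 8.04%. With all libraries counted as labelled, the log2 difference of *Dcx* was 0.00415, with WT5 at 4.09 and KO1 at 9.32 among them.

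The other 5 genes overlapped between the genotypes. *Dclk1* was at 2.33, 1.92 and 2.25 against 2.06 and 2.17, and *Map2* at 4.49, 3.84 and 3.95 against 4.16 and 4.0. *Mapt* (11.9, 5.89 and 11.5 against 8.80 and 9.66), *Stmn2* (27.8, 16.8 and 23.0 against 20.8 and 21.4) and *Stmn3* (10.8, 7.87 and 10.4 against 9.31 and 9.76) were each lowest in WT3, with the KO libraries inside the WT range. Differences of these 5 genes were smaller than their own SE, so no direction is read from them. Bulk means over gated cells do not tell a lower level per cell from a changed mix of cells within the gate.

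**Figure D2:**
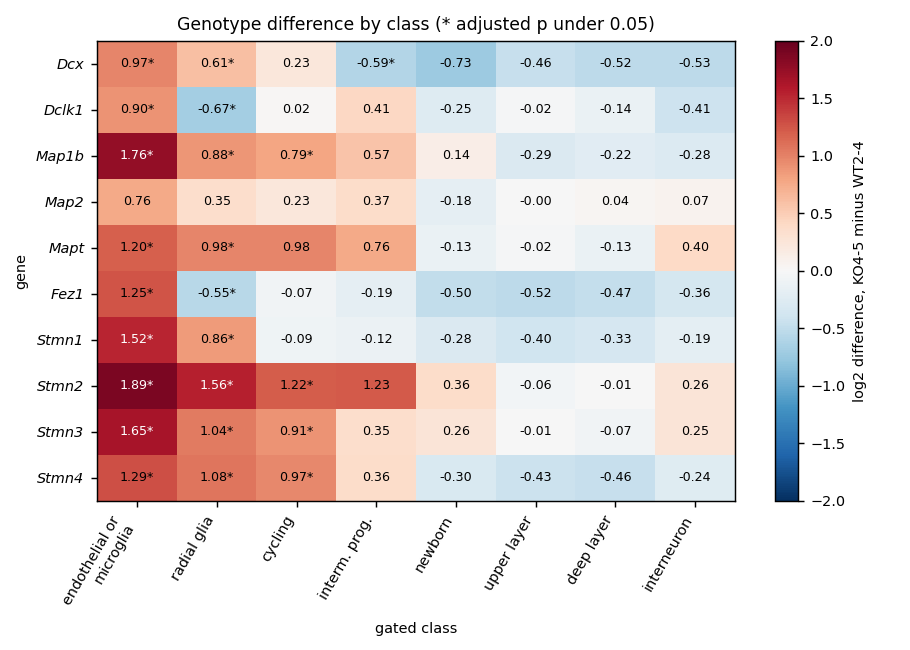
Log2 difference of each gene (rows) between KO4 and KO5 and WT2, WT3 and WT4 in 8 gated classes (columns), on the scale of log2 of UMIs per 10000 plus 1, red for higher and blue for lower in KO, with an asterisk at a limma adjusted p under 0.05. Endothelial- or microglia-gated and radial glia-gated cells carry 9 calls each, with *Dclk1* and *Fez1* lower in radial glia-gated cells, and upper layer-gated neurons carry none.

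Radial glia-gated cells went the other way for most genes. In KO, 7 of the 10 were higher (2.91% of 9195 genes called higher) and 2 lower (4.98% called lower). *Stmn2* was at 4.96, 3.31 and 7.69 in WT2, WT3 and WT4 and at 15.6 and 18.2 in KO4 and KO5, a log2 difference of 1.56 ± 0.21 (SE) with a limma adjusted p of 5.36e-06. *Stmn4* (1.08 ± 0.18), *Stmn3* (1.04 ± 0.20), *Mapt* (0.98 ± 0.20), *Map1b* (0.88 ± 0.18), *Stmn1* (0.86 ± 0.17) and *Dcx* (0.61 ± 0.19) were the others that rose.

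The 2 genes that fell were those about as high as, or higher than, in upper layer-gated neurons in the radial glia-gated cells of WT2 to WT4. *Dclk1* was at 3.6, 4.25 and 4.92 against 2.39 and 2.17, a log2 difference of -0.67 ± 0.18 with a limma adjusted p of 0.0107, and *Fez1* at 5.58, 6.29 and 5.57 against 3.55 and 3.72, a difference of -0.55 ± 0.18. *Map2*, at 2.43, 1.72 and 2.3 against 2.97 and 3.01, did not pass (adjusted p 0.238, limma). WT5 lay with or beyond the KO libraries, with *Stmn2* at 24.8, *Dclk1* at 2.35 and *Fez1* at 2.37. When all libraries entered as labelled, or WT4 and WT5 were set against KO4 and KO5, none of the 10 genes and no other gene was called, and without KO5 1 was (1.86% of all genes either way).

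*Dcx*, *Map1b*, *Stmn1* and *Stmn2* were lower in radial glia-gated cells with 5 or more markers than in those with exactly 3, in each of the 5 libraries. In cells with exactly 3 markers *Map1b* was at 12.3, 10.6 and 12.7 in WT2, WT3 and WT4 against 14.5 and 15.7 in KO4 and KO5. In cells with 5 or more it was at 6.97, 4.07 and 5.46 against 6.89 and 5.52, so the genotypes overlapped. *Stmn2* stayed apart in such cells, at 3.56, 2.42 and 5.71 against 9.21 and 9.01, although the KO values rest on 25 and 6 cells. So did *Stmn1* (25.6, 26.1 and 24.8 against 40.5 and 48.6) and *Stmn4* (1.14, 1.43 and 1.67 against 2.85 and 2.12). *Fez1* stayed lower in KO (6.10, 7.08 and 5.88 against 3.68 and 3.70). *Dcx*, *Map2*, *Mapt* and *Stmn3* overlapped. *Dclk1* went the opposite way in WT libraries, from 2.67, 2.81 and 2.71 in cells with 3 markers to 3.82, 5.12 and 5.92 in cells with 5 or more, against 2.59 and 2.81 in KO4 and KO5. Asking for at least 1 more marker than the gate left 5 of the 9 calls (3.01% of genes called either way) and at least 2 more left only *Stmn2* (0.67%). The part that other cells or free RNA had in these levels was not tested.

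**Figure D3:**
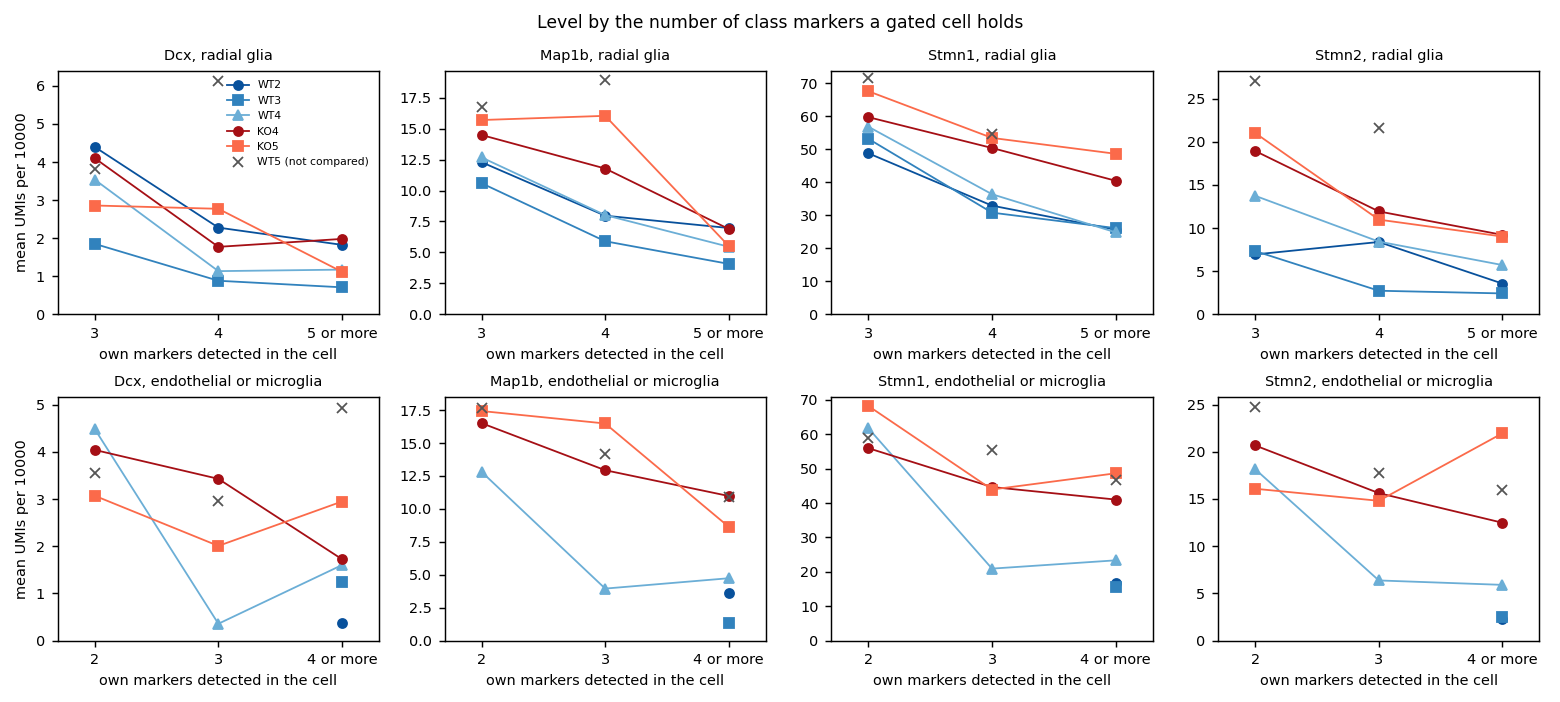
Mean UMIs per 10000 (y axes, from 0) of *Dcx*, *Map1b*, *Stmn1* and *Stmn2* in radial glia-gated cells (top) and endothelial- or microglia-gated cells (bottom), by the number of markers of their own class that the cells held (x axes), a line per library. In radial glia-gated cells each library is lower at 5 or more markers than at 3, and *Map1b* of KO4 and KO5 reaches 6.89 and 5.52, inside the WT range of 4.07 to 6.97. At 5 or more markers *Stmn1* and *Stmn2* of KO4 and KO5 stay above WT2, WT3 and WT4.

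Endothelial- or microglia-gated cells, blood vessel and immune cells that should lack neuronal transcripts, also held more of these transcripts in KO. All 10 were above 0 for KO minus WT, and 9 were called higher, all but *Map2* (2.75% of 9562 genes called higher). *Stmn2* was at 3.06, 2.32 and 7.35 in the 21, 13 and 71 cells of WT2, WT3 and WT4, and at 16.9 and 16.8 in the 81 and 32 cells of KO4 and KO5, a log2 difference of 1.89 ± 0.29 with a limma adjusted p of 1.88e-08. *Map1b* was at 3.80, 2.3 and 5.53 against 13.9 and 15.9 (1.76 ± 0.29) and *Dcx* at 0.549, 1.06 and 1.75 against 3.20 and 2.88 (0.97 ± 0.28). WT5 had 21.9, 15.8 and 3.72 for these 3 genes, as high as or above the KO libraries.

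*Dclk1* had 0 UMIs in the 13 cells of WT3, which allows a level of up to 0.476 by counting error, against 0.944 and 1.16 in WT2 and WT4 against 1.47 and 2.65 in KO4 and KO5. The 6 endothelial markers summed to 97.0, 112 and 39.0 in these cells of WT2, WT3 and WT4 and to 22.2 and 14.8 in KO4 and KO5, and the 7 microglia markers to 17.8, 40 and 99.8 against 11.5 and 6.60, with none of either list at 0 throughout. In cells with 4 or more markers *Stmn2* still stood at 2.31, 2.5 and 5.90 against 12.5 and 22, in 24 and 5 cells of KO4 and KO5. With at least 1 more marker than the gate 7 of the 10 genes were called (2.7% of genes either way), with at least 2 more 4 were (0.798%), and without KO5 2 were (0.676%).

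**Figure D4:**
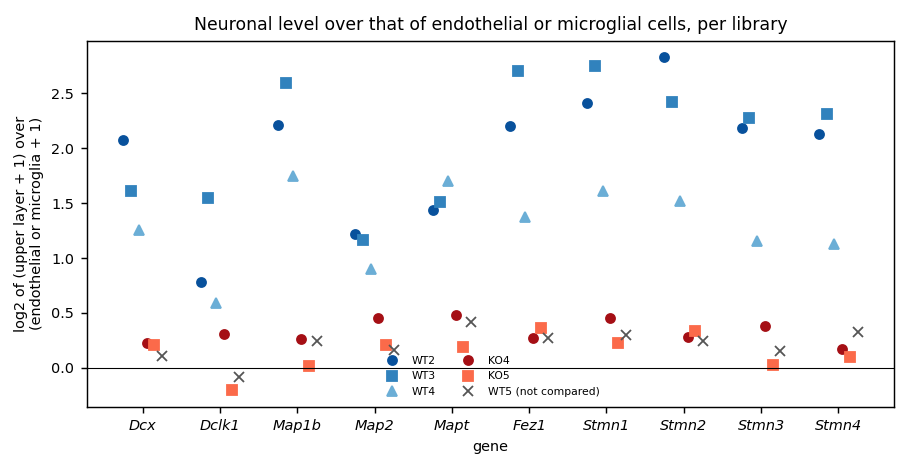
Log2 of the upper layer level plus 1 over the endothelial or microglia level plus 1 (y axis) for each gene (x axis), a point per library, blue for WT2, WT3 and WT4, red for KO4 and KO5, and a cross for the library labelled WT5. All blue points lie above all red points for each of the 10 genes, with medians over genes of 2.15, 2.29 and 1.32 in WT and 0.29 and 0.20 in KO.

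Set against vessel and immune cells of the same library, neurons stood out far less in KO4 and KO5. The level in upper layer-gated neurons over that in endothelial- or microglia-gated cells, as log2 of the levels plus 1, had a median over the 10 genes of 2.15, 2.29 and 1.32 in WT2, WT3 and WT4, 0.29 and 0.20 in KO4 and KO5 and 0.25 in WT5. For *Dcx* it was 2.08, 1.61 and 1.26 against 0.23 and 0.21. All 10 genes had both KO libraries below the WT libraries, by this ratio and by the plain difference of levels. By the plain difference, so had 53.8% of the 3362 genes that were higher in neurons in each WT library. Against radial glia-gated cells 9 of 10 did not overlap by either measure, 8 of them lower in KO. By the plain difference, so were 50.9% of 2739 genes higher in neurons in each WT library, a set without *Dclk1* and *Fez1*. *Dclk1* was higher in that second comparison, at -0.47, -0.85 and -0.86 in WT and -0.15 and -0.0004 in KO, and *Fez1* was the gene that overlapped.

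The difference of the genotype change between upper layer-gated and radial glia-gated cells was itself tested. It was negative for 7 genes (3.45% of 9767 genes called lower), from *Mapt* at -1.0 ± 0.14 to *Stmn2* at -1.62 ± 0.17, and positive for *Dclk1* at 0.65 ± 0.16 (5.31% called higher). *Fez1* at 0.03 ± 0.14 and *Map2* at -0.35 ± 0.15 were not called. Against endothelial- or microglia-gated cells 7 genes differed (2.21% called lower), *Map1b* most, at -2.05 ± 0.21, while *Dclk1*, *Map2* and *Stmn1* did not pass (limma adjusted p 0.0610, 0.0655 and 0.110). Without KO4 this last count was 3 (1.24% of genes called either way) and without KO5 it was 1 (0.0499%). In the first test at least 2 more markers per cell left 2 calls (0.231%).

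Among the other classes, *Dcx* had both KO libraries below all WT libraries in each class from intermediate progenitors on. The exact two-sided permutation p was 0.2 in each, the smallest possible. The share of all genes in this order was not computed for these classes. In intermediate progenitor-gated cells *Dcx* was at 5.50, 4.36 and 5.29 in WT2, WT3 and WT4 against 2.82 and 3.21 in KO4 and KO5, which passed (-0.59 ± 0.17, limma adjusted p 0.0415, 1.52% of genes called lower). Most other genes lay the other way in this class, 7 of the 10 with both KO libraries above all WT libraries and *Fez1* below, as *Dcx* was. With no share of all genes beside it, this count is a description only. *Stmn2* was at 7.10, 4.14 and 10.4 against 15.5 and 19.3, a difference of 1.23 ± 0.29 with a limma adjusted p of 0.0586, *Mapt* differed by 0.76 ± 0.27 and *Map1b* by 0.57 ± 0.20. An unadjusted limma p under 0.05 was found for 8 of the 10 and for 1668 of all 8859 genes. Cells with only the 2 markers asked for made up 49.2 to 64.0% of this gate in WT2 to WT4 and 77.2 and 85.7% in KO4 and KO5. In newborn neuron-gated cells *Dcx* was at 6.21, 6.24 and 6.35 against 3.53 and 3.25, 0.541 of the WT mean, with a difference of -0.73 ± 0.23 and a limma adjusted p of 0.0696. No gene of the 10 was called in newborn neuron-gated cells (1.7% of all genes either way, 2 of the 10 at an unadjusted limma p under 0.05), in deep layer-gated cells (0.534%, 3 of 10) or in interneuron-gated cells (1.07%, 2 of 10). Over all genes, 1182 of 8899, 711 of 8608 and 974 of 8794 had such an unadjusted p in these 3 classes. *Dcx* still lay lower in both KO libraries without overlap there, at 6.86, 5.14 and 5.26 against 3.94 and 3.42 in deep layer-gated cells and 5.49, 4.93 and 6.56 against 4.0 and 3.20 in interneuron-gated cells.

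Cycling progenitor-gated cells had 4 genes higher in KO and none lower (3.54% of 8963 genes called higher). The share of these cells that held only the 3 markers asked for was 17.2, 16.2 and 30.3% in the WT libraries and 54.4 and 67.3% in the KO libraries, and its part in the result was not tested. *Stmn2* rose by 1.22 ± 0.20, from 6.05, 3.36 and 7.63 to 14.2 and 13.7, with *Stmn4* (0.97 ± 0.18), *Stmn3* (0.91 ± 0.19) and *Map1b* (0.79 ± 0.19). *Stmn1*, which these cells use at a high level, was at 55.4, 71.5 and 58.3 against 53.7 and 62.2 and *Dclk1* at 1.78, 1.73 and 2.07 against 2.04 and 1.74, both overlapping. Over the 6 classes other than upper layer, 14 of 60 tests were called (4.05% over all genes), 0 with all libraries as labelled (0.0161%) and 3 without KO5 (1.26%).

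Shares of cells with a UMI were compared at matched depth. After thinning to 1800 UMIs, *Dcx* was detected in 62.7, 62.1 and 61.8% of upper layer-gated cells of WT2, WT3 and WT4 and in 50.9 and 46.6% of those of KO4 and KO5 (73.2, 81.2 and 90.4% against 61.8 and 55.3% before thinning). In endothelial- or microglia-gated cells the thinned shares were 4.76, 15.4 and 23.9% against 40.7 and 34.4% (23.8, 23.1 and 45.1% against 50.6 and 43.8% before thinning). Median UMIs per cell were 2411, 3619 and 4793.5 against 2277 and 2197 in the upper layer gate and 4267, 3794 and 3446 against 2266 and 2034 in the other. *Stmn2* was found in 95.2, 89.6 and 94.3% of upper layer-gated cells against 97.3 and 98.7%, and in 42.9, 30.8 and 62.0% of endothelial- or microglia-gated cells against 87.7 and 87.5%, all thinned. *Fez1* was in 64.6, 68.9 and 58.7% against 49.6 and 51.6% of upper layer-gated cells, and in radial glia-gated cells in 56.4, 67.1 and 57.8% against 44.7 and 49.1%.

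A wider list of 55 other microtubule genes, of which 48 to 51 were tested in a comparison, put the 10 genes in context. From radial glia to intermediate progenitors in WT2 to WT4, 8 of 50 rose (5.11% of all genes) and 2 fell (9.26%). The neuronal kinesin gene *Kif5c* rose by 0.73 ± 0.11, *Cdk5r1*, the activator of the neuronal kinase CDK5, by 0.68 ± 0.11, and the collapsin response mediator genes *Crmp1* and *Dpysl3* by 0.62 ± 0.12 and 0.55 ± 0.10, followed by the kinase gene *Gsk3b* (0.41 ± 0.10). *Ckap5*, which makes spindle microtubules grow, and *Nde1*, coding for a dynein partner of dividing progenitors, changed by -0.38 ± 0.13 and -0.25 ± 0.07. At the next step, to newborn neurons, 5 of 50 rose (1.35%), *Crmp1* (0.70 ± 0.12), *Dpysl5* (0.66 ± 0.12), *Kif5c* (0.55 ± 0.11), *Kif5a* (0.51 ± 0.13) and *Dpysl3* (0.41 ± 0.10), and *Nde1* fell again (1.98% of all genes called lower).

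Toward upper and deep layer neurons in WT2 to WT4, 2 of 50 list genes rose in each case (0.475% and 0.718% of all genes), the dynein gene *Dync1i1* (0.57 ± 0.14 and 0.79 ± 0.14) and *Dpysl2* (0.48 ± 0.09 and 0.40 ± 0.09). Over all 5 libraries *Cdk5r1*, *Gsk3b* and *Kif5c* were called higher and *Ckap5* lower at the first step, of 51 tested (2.12% and 5.15%), and *Nde1* lower at the second (0.92%).

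Between the genotypes, 2 of 48 list genes were called higher in KO in upper layer-gated neurons (2.2% of all genes) and none lower, with a median of -0.05 against -0.17 for the 10 genes and -0.04 for all genes tested. These were *Clasp2*, coding for a protein of microtubule plus ends, at 1.57 ± 0.13, and *Dpysl2*, a collapsin response mediator that binds tubulin, at 0.85 ± 0.14. Both were called higher in all 7 neuronal and progenitor classes and in endothelial- or microglia-gated cells, and *Clasp2* over all kept cells was at 5.36 in WT5 against 4.57 and 4.86 in KO4 and KO5. No other list gene was called in deep layer-gated cells (2 of 49, 0.511% of all genes higher) or interneuron-gated cells (2 of 50, 0.716%).

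In radial glia-gated cells 8 of 49 list genes were higher (2.91% of all genes) and none lower, with a median of 0.12. Beside *Clasp2* and *Dpysl2*, the largest were *Crmp1* (1.10 ± 0.18), *Dpysl3* (0.91 ± 0.20) and *Gsk3b* (0.75 ± 0.18). Endothelial- or microglia-gated cells had 8 of 51 higher (2.75%) and none lower, among them *Crmp1* (1.46 ± 0.29), *Cdk5r1* (1.02 ± 0.28) and *Dpysl3* (1.0 ± 0.29). In cycling progenitor-gated cells 5 of 50 were higher (3.54%), with *Crmp1* (0.65 ± 0.18), *Dpysl3* (0.58 ± 0.18) and *Dync1i1* (0.54 ± 0.13) beside the same pair, and 2 lower (6.2%), *Ckap5* (-0.95 ± 0.18) and *Kif2c*, a depolymerizing kinesin of mitosis (-0.56 ± 0.16). Intermediate progenitor-gated cells had 3 of 49 higher (1.55%), *Dync1i1* (0.59 ± 0.13) being the third, and none lower. Newborn neuron-gated cells had 2 of 48 higher (0.91%) and 1, *Kif5b*, lower (-0.83 ± 0.23, 0.787%).

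The genotype change differed between upper layer-gated and radial glia-gated cells for 10 of 50 list genes, all lower (3.45% of all genes), led by *Crmp1* (-1.31 ± 0.15), *Dpysl3* (-1.05 ± 0.15), *Cdk5r1* (-0.83 ± 0.15), *Kif5c* (-0.78 ± 0.16) and *Dpysl5* (-0.71 ± 0.15). Against endothelial- or microglia-gated cells 7 of 51 were lower (2.21%), led by *Crmp1* (-1.66 ± 0.26), *Kif5c* (-1.42 ± 0.26), *Cdk5r1* (-1.26 ± 0.25), *Dpysl3* (-1.14 ± 0.23) and *Dpysl2* (-1.13 ± 0.20), and 1 was higher, *Map7* (0.53 ± 0.16, 3.06%).

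Over the 35 means of 7 classes in the 5 libraries, which share library, depth and cells, the 45 pairs of the 10 genes had Pearson correlations from -0.535 (*Dclk1* with *Stmn1*) to 0.958 (*Stmn2* with *Stmn3*), with a median of 0.653. Of 1548 other genes, those most like *Dcx* included *Kif5c* (0.893), *Tubb3* (0.884), *Actg1* (0.879) and *Cd24a* (0.871). Those most like the mean of all 10 genes were *Actg1* (0.95), *Nsg1* (0.95), *Tubb3* (0.937), *Gng2* (0.933) and *Crmp1* (0.931). These are descriptions across class means, with no test.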

How the data were processed

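Neocortical cells of 9 embryos were sequenced as 1 library each. Per the labels and the paper's methods, the authors counted UMIs with Cell Ranger (2.1.0 in the submitters' processing notes) on the mm10 genome and filtered cells in Seurat 2.3.4 under R 3.6.0. Whole UMI counts were deposited by the authors for the 2 KO libraries compared and for WT4 and WT5. The remaining 5 libraries were deposited as the natural log of UMIs per 10000 plus 1, from which whole UMIs were recovered for all values within 1e-06.

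Cells with 1000 to 5000 genes, 1800 to 10000 UMIs, under 6% mitochondrial and at most 1% haemoglobin UMIs were kept (Python 3.11.15, scanpy 1.11.5, numpy 2.4.6, scipy 1.17.1, matplotlib 3.10.9). Kept cells numbered 126, 1184, 1617, 6173 and 3630 in WT1 to WT5 and 331, 118, 4199 and 2303 in KO1, KO2, KO4 and KO5. WT1, KO1 and KO2 held too few cells, and WT2, WT3, WT4, KO4 and KO5 were compared, a choice that an earlier look at these data made from the cell numbers the study states. The paper also reports excluding 1 WT animal because its *Tcf4* was below that of the KO, without naming the library. *Tcf4* in WT5 (7.20) lay below KO4 (9.29) and KO5 (7.59), as did that in WT1 (4.65). Cells passing gates of more than 1 lineage were left out as mixed. Scrublet's own threshold marked under 0.5% of cells in the large libraries and did not work, so leaving out the highest 5% of scores was an alternative.

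Levels were averaged over cells and tested on log2 of the mean plus 1 with limma-trend and robust variances (limma 3.58.1, R 4.3.3), for genes at 0.1 or more in at least 2 libraries and libraries with at least 20 cells of a class (10 for endothelial- or microglia-gated cells). Adjusted p are Benjamini-Hochberg values over all genes tested. The test was tried on simulated data with known changes. EdgeR 4.0.16 and DESeq2 1.42.0 on summed UMIs, other pseudocounts, filters, gates, depths and libraries, and leaving out each library were alternatives. Single values were compared with two-sided exact permutation tests. P-values rest on the spread between animals, 1 library each, and intervals and limits for counts of 0 cover counting error only. Limma pools this spread over genes. The SE of the 10 genes ran only from 0.273 to 0.292 in endothelial- or microglia-gated cells and from 0.208 to 0.229 in newborn neuron-gated cells. It ran only from 0.171 to 0.209 in radial glia-gated cells. In cycling progenitor-gated cells it ran from 0.173 to 0.201, *Mapt* (0.417) aside. A limma p in these 4 classes rests mostly on the pooled spread, not on the gene's own 3 and 2 libraries.

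All 10 genes are named, as are those of the 55 listed microtubule genes that were called, at most 5 in each direction by size, and the 5 genes most correlated with *Dcx* and with the mean of the 10, of which 1 is not reported here. The genes, lists, gates and comparisons were chosen with earlier results of these data known. Tests in endothelial- or microglia-gated cells, the steps in WT2 to WT4 alone and the stricter marker limits were added after seeing the data. Reads at 3′ ends give no level per length, so levels were not compared between genes, and *Map2* reads may include those of an overlapping antisense transcript. Positions are from GENCODE vM21 (GRCm38), promoters from RefSeq (GRCm38.p6).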

Additional observations from a re-analysis of the deposited data

Results flagged for a closer look

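For 8 genes the difference between KO and WT in upper layer-gated neurons was not the same as in radial glia-gated cells, by limma's test of the difference itself. On the log2 scale it was -1.07 for *Dcx*, 0.65 for *Dclk1*, -1.17 for *Map1b*, -1.0 for *Mapt*, -1.25 for *Stmn1*, -1.62 for *Stmn2*, -1.05 for *Stmn3* and -1.50 for *Stmn4*.

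For 7 genes the same difference against endothelial- or microglia-gated cells passed the test, with -1.43 for *Dcx*, -2.05 for *Map1b*, -1.22 for *Mapt*, -1.78 for *Fez1*, -1.95 for *Stmn2*, -1.67 for *Stmn3* and -1.72 for *Stmn4*.

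Of 80 sets of libraries labelled WT, 1 gene and class each, 5 held a library far from the others. This is close to the share of about 1 in 20 that chance gives, and the sets share libraries. WT5 stood apart for *Dcx* in newborn neuron-gated cells (4.40 UMIs per 10000) and for *Stmn1* (66.1) and *Stmn4* (5.83) in radial glia-gated cells. WT3 stood apart for *Stmn3* in upper layer-gated (7.87) and deep layer-gated cells (8.54).

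In WT5, which was not among the 5 libraries compared, all 10 of the 10 genes had a higher level in endothelial- or microglia-gated cells than in each of WT2, WT3 and WT4. The share of all genes in this order was not computed, so this count is a description only. Of these WT5 cells, 62.2% of the endothelial-gated and 70% of the microglia-gated held only the number of markers asked for. In WT4, the highest of WT2 to WT4, these shares were 9.38 and 12.8%.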

How the results depend on the processing

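Calls among the 10 genes depended on which libraries entered, on the filter on low values and on how many markers a cell had to hold, and the causes were not tested. Settings with all libraries as labelled, or with WT4 and WT5 against KO4 and KO5, counted WT5 as WT. *Tcf4* in WT5 lay below both KO libraries compared. In upper layer-gated cells 0 genes were called, 1 with gates read on all UMIs and 0 to 3 when each library was left out in turn. In the 6 other classes 14 of 60 tests were called, 7 with no filter on low values, 8 (of 50) with 1 more marker per gate, 0 with all libraries as labelled, 0 with WT4 and WT5 against KO4 and KO5, and 3 to 14 on leaving out each library. In radial glia-gated cells 9 were called, 3 with no filter, 0 with all libraries as labelled, 0 with WT4 and WT5 against KO4 and KO5, 5 and 1 with at least 1 and 2 more own markers, and 1 to 8 on leaving out each library. The step from radial glia to intermediate progenitors had 3 calls, 0 to 4 on leaving out each library and 7 in WT2 to WT4 only. The next step, to newborn neurons, had 1, then 0 with no filter, 0 with cells over 1% haemoglobin kept, 0 to 1 on leaving out each library and 8 in WT2 to WT4 only. Steps to upper and deep layer neurons went from 0 to 1 and 2 in WT2 to WT4 only. The difference between upper layer-gated and radial glia-gated cells had 8 calls, 1 with no filter, 2 with at least 2 more own markers and 7 to 8 on leaving out each library. In endothelial- or microglia-gated cells 9 became 4 with at least 2 more own markers and 2 to 8 on leaving out each library, and the difference against them, with 7, became 1 to 10. The *Dcx* difference in upper layer-gated cells turned from -0.46 to 0.00415 with all libraries as labelled, and it was below 0 in 20 of 21 settings. *Map1b*, *Fez1*, *Stmn1* and *Stmn4* were below 0 in all 21, while *Dclk1*, *Map2*, *Mapt*, *Stmn2* and *Stmn3*, smaller than their own SE, were below 0 in 13, 9, 10, 15 and 11.

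In a replicate block fit, which blocks on the numbers in the labels, 0 genes were called in upper layer-gated cells, 0 of 60 in the 6 other classes and 0 in radial glia-gated cells, with WT5 and KO5 among the pairs. The numbers were not taken as pairing, since only 2 same-numbered pairs held enough cells and nothing in the labels ties a number to a litter, and their deviations correlated at 0.131 (WT4 with KO4) and 0.411 (WT5 with KO5), while WT5 and KO4 correlated at 0.348. With 2 KO libraries and 3 WT libraries a small change cannot pass, and low median depth in KO4 and KO5 limits shares of cells.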
